A study of Mus musculus with 24 samples.

Results

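The step from CT21 to CT00 is the approach to subjective dawn in the mouse liver: CT stands for circadian time, counted in constant conditions, and CT00 is the time at which the light would have come on. It was taken here as the difference CT00 minus CT21 of each gene, from 3 arrays at CT00 and 3 at CT21, which are 6 of the 24 arrays of the series. Each array held the RNA of the liver of 1 adult male C57BL/6 mouse (Harlan-Olac). All animals had been entrained for 4 weeks by 12 h of light alternating with 12 h of dim red light, per the sample labels. They were then moved to dim red light alone, and livers were taken during their second cycle there. Both groups share this treatment and, per the labels, differ by time. The series text instead names constant darkness and fewer time points, and the sample labels were followed here. Per time, 1 label protocol counts 4 mice and another counts 3 replicates; 3 arrays at each of 8 times were analysed. Ages and batches of scanning or extraction are unstated.

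In the liver clock, the activators ARNTL (BMAL1) and CLOCK bind E-boxes and drive the genes for the repressors PER and CRY, for the nuclear receptors NR1D1 and NR1D2 (REV-ERB), which silence Arntl, and for the output factors DBP, TEF and HLF. Late in the subjective night Arntl transcript is high, the REV-ERB transcripts are low and the PER and CRY proteins are being cleared, so that the next round of E-box driven transcription starts near dawn. For a nocturnal animal this is the change from feeding to rest, when the liver turns from storing fuel towards releasing it and cholesterol and bile acid metabolism are under clock control.

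Values below are log2 values relative to the median of the same gene over the 24 arrays. They hold no level, so genes can be compared only by their differences. A difference between times is followed by its standard error from 1 limma fit over all 24 arrays, and an adjusted p is adjusted over all 19935 genes tested. The words rose and fell are kept for an adjusted p under 0.05. In bulk liver, fewer cells of a type and less RNA per cell cannot be told apart. The rounding of the values reveals 2 brightness classes. All 8 hepatocyte markers tested, albumin and transthyretin among them, lay in the brighter class, against 2611 of 19935 genes. So did 2 of 4 erythroid, 2 of 9 Kupffer cell, 2 of 8 endothelial, 2 of 8 stellate cell and 1 of 5 adipocyte markers. Of neutrophil (9), skeletal muscle (5), bile duct (5), lymphocyte (7) and exocrine pancreas (5) markers 0 did. The class therefore does not separate hepatocytes from all other cells.

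The arrays did not all behave alike. CT21 replicate 3 had the widest spread of values of the 24 arrays, with an interquartile range of 0.200 where the narrowest array had 0.0992, and the lowest mean of the brighter class, -0.106. It also had the highest mean over 1027 olfactory receptor genes, whose known site is the nose, at 0.051; the other CT21 arrays were at 0.012 and 0.026 and the CT00 arrays between -0.024 and -0.0062. The mean over 51 small nucleolar RNA genes was 0.22 on CT21 replicate 1, -0.13 and -0.11 on the other CT21 arrays, and 0.030 to 0.14 at CT00. These scores move with the results below, and their part in them was not tested beyond the values given with the array left out or with the score in the fit.

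**Figure D1:**
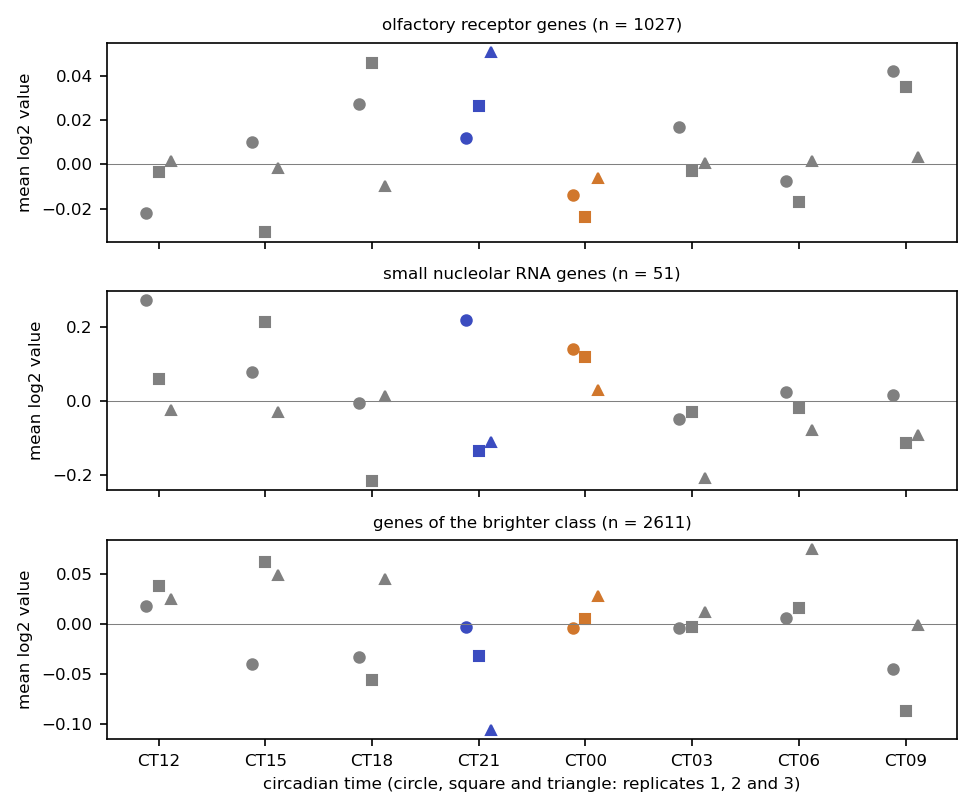
Mean log2 value of 3 groups of genes on each of the 24 arrays, ordered by circadian time; each symbol is 1 array, with CT21 in blue and CT00 in orange. The CT21 array drawn as a triangle, replicate 3, is the highest of all arrays for olfactory receptor genes (0.051) and the lowest for the brighter class (-0.106).

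One gene of 19935 rose from CT21 to CT00, which is 0.00502% of the genes tested, and 0 fell. At an unadjusted p under 0.05 there were 2901 genes (14.6%), 1319 higher at CT00 (6.62%) and 1582 lower (7.94%). All 3 CT00 arrays lay above all 3 CT21 arrays for 1906 genes (9.56%) and below them for 2549 (12.8%). The median difference over all genes was -0.019. It was 0.058 in the brighter class, where 367 genes were higher at that unadjusted p and 76 lower, and -0.028 over 17189 dimmer genes, where 928 were higher and 1502 lower. The count of changed genes depended on single arrays. Without CT00 replicate 1 it was 1, a gene other than Cmpk2, and without CT00 replicate 3 it was 1, St3gal5, which was lower. It was 119 (69 higher, 50 lower) without CT21 replicate 1 and 0 without CT21 replicate 2, CT21 replicate 3 or CT00 replicate 2. It was 66 (39 higher, 27 lower) after quantile normalization and 2410 (1026 higher, 1384 lower) when arrays were weighted by their fit. The unadjusted count was 1267 without CT21 replicate 3 and 907 with the olfactory receptor score in the fit.

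The gene that rose was Cmpk2, the mitochondrial kinase that turns cytidine and uridine monophosphates into diphosphates and that interferons induce. It read 9.1e-06, -0.029 and -0.021 at CT21 and 0.38, 0.38 and 0.40 at CT00. The 3 CT00 arrays were nearly equal and lay well above the 3 CT21 arrays, which were nearly equal too. The difference was 0.40 ± 0.058, a ratio of 1.32 (adjusted p = 0.0186, higher on 3 of 3 arrays). Over the cycle the group means of Cmpk2 were -0.016 at CT18, -0.017 at CT21, 0.39 at CT00, 0.19 at CT03 and 0.18 at CT06, so CT00 was the highest of the 8 times. The adjusted p of Cmpk2 ran from 0.000138 to 0.321 over 17 alternative settings and stayed under 0.05 in 10 of them. It was 0.0673, 0.0780 and 0.0965 without CT00 replicates 1, 2 and 3, 0.188 and 0.160 without CT21 replicates 2 and 3, 0.0910 with only the 6 arrays and 0.321 without the 4 arrays of widest spread.

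Cmpk2 lies on chromosome 12 next to Rsad2, the gene for viperin, another interferon-induced protein, and the windows at the start sites of both are shown because Cmpk2 is the gene that passed and Rsad2 is its neighbour; whether their differences differ was not tested. Each is the 250 bases before the start site in the RefSeq promoter table of build GRCm38.p6, at chr12:26468965-26469214, plus strand, and chr12:26456453-26456702, minus strand. The RefSeq gene table lets Cmpk2 begin at 26469117, so the last part of its window lies inside that gene span, while the Rsad2 window ends where its gene span begins; the windows are not alike, and their match counts are not compared. Capitals mark the match to the interferon-stimulated response element, searched as GAAA, any 2 bases and GAAA on either strand.
Cmpk2: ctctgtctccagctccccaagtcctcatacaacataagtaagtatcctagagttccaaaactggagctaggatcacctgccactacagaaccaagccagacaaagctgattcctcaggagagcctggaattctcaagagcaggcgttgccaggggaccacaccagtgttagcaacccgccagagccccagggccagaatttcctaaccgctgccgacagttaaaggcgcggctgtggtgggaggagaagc
Rsad2: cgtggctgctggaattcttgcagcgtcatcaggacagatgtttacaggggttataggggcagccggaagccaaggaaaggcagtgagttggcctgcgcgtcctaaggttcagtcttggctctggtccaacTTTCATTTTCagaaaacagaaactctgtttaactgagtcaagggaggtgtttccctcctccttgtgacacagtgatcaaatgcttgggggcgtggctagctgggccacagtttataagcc
The Rsad2 window holds 1 match, which starts 120 bases before the start site, and the Cmpk2 window holds 0; 3.4% of 15561 gene windows hold such a match. Rsad2 read 0.23, -0.18 and 0.0050 at CT21 and 0.084, 0.22 and 0.35 at CT00. The 2 times overlapped, and the difference of Rsad2 was 0.20 ± 0.17 (adjusted p = 0.586).

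After Cmpk2, the genes of smallest p that were higher at CT00 did not pass the test, and their values are given as measured. Serpina7 encodes thyroxine-binding globulin, which carries thyroid hormone in plasma. It read -0.39, -1.08 and -1.08 at CT21 and 0.59, 0.66 and 0.77 at CT00. CT21 replicate 1 was the least low of its group, and the groups lay far apart, with a difference of 1.53 ± 0.26 or 2.88-fold (adjusted p = 0.0871, higher on 3 of 3 arrays). Serpina7 was as low at CT18, with a mean of -0.87, and its means at CT03 and CT06 were 0.52 and 0.41. Most of the distance between its lowest and highest group means lay within these 3 h. Single times could spread widely, as its CT09 arrays read -0.71, -0.51 and 0.74. Spon2, a matrix protein that takes part in innate immunity, read 0.41, 0.24 and 0.28 at CT21 and 0.92, 0.86 and 0.75 at CT00. Its difference was 0.54 ± 0.094 (adjusted p = 0.0871), after one of 0.42 in the step from CT18 to CT21.

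Other genes with CT00 arrays all above the CT21 arrays belonged to several compartments of the cell, each at an adjusted p of 0.120. Dnajb9, a co-chaperone of the endoplasmic reticulum, read -0.50, -0.71 and -0.88 at CT21 and 0.32, 0.19 and 0.050 at CT00, a difference of 0.88 ± 0.18. All CT21 arrays of Dnajb9 were far below the median over the cycle, and the step from CT18 to CT21 had gone the other way, by -0.78. Raet1d, a ligand of the NKG2D receptor of natural killer cells, read -0.43, -0.40 and -0.32 at CT21 and 0.24, 0.54 and 0.54 at CT00, with CT00 replicate 1 the lowest of its group. Krt18, the keratin of hepatocyte intermediate filaments, was higher by 0.56 ± 0.12, the death-associated kinase gene Dapk2 by 0.49 ± 0.092, and Rtp4, an interferon-induced receptor transporter, by 0.45 ± 0.097. The Golgi tether subunit gene Cog3 was higher by 0.43 ± 0.089. Smaller differences were found for genes of purine nucleotide metabolism, 0.39 for the GMP synthase gene Gmps and 0.36 for the nucleotidase gene Nt5c2, and for the kinase gene Sgk3 (0.37), the p53-binding partner gene Ppp1r13b (0.34), Cfdp1 (0.35) and Phf11d (0.28). All 15 genes of smallest p in this direction kept their sign in every alternative setting. Their CT21 and CT00 arrays did not overlap, so leaving out or weighting arrays could not change the sign.

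Among genes lower at CT00, St3gal5 had the smallest p; it encodes the sialyltransferase that makes the ganglioside GM3. It read -0.25, 0.040 and -0.13 at CT21 and -0.83, -0.67 and -0.43 at CT00. CT00 replicate 1 was the lowest, CT21 replicate 2 the highest, and the groups did not overlap. The difference was -0.53 ± 0.096, so that CT21 stood 1.45-fold above CT00 (adjusted p = 0.0948). Thrsp, the lipogenic Spot 14 protein, read 0.21, 0.14 and 0.27 at CT21 and -0.32, -0.47 and -0.70 at CT00. Its CT00 arrays were all below 0 and its CT21 arrays all above, with a difference of -0.71 ± 0.15 (adjusted p = 0.120), and the preceding step had been -0.49. Acmsd, the enzyme that diverts tryptophan breakdown away from NAD synthesis, read 0.52, 0.95 and 0.69 at CT21 and 0.17, 0.041 and -0.041 at CT00. The difference of Acmsd was -0.66 ± 0.14 at the same adjusted p. Asl, the argininosuccinate lyase of the urea cycle, was lower (-0.33 ± 0.070), with 3 nearly equal CT00 arrays between -0.14 and -0.12.

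The remaining 11 genes of the 15 with smallest p on the lower side had adjusted p values of 0.120 to 0.123. They were Zdhhc12 (-0.42), Hcar1 (-0.40), Epop (-0.36), Klk9 (-0.35), Vwa2 (-0.34), Nrn1l (-0.33), Mrgprb13 (-0.30), Map10 (-0.29), Grina (-0.27), Rfk (-0.26) and Epp13 (-0.26). Hcar1 encodes a lactate receptor, Rfk riboflavin kinase, Zdhhc12 a palmitoyltransferase and Klk9 a kallikrein protease. All of them except Grina lay in the dimmer class, as did 17189 of all 19935 genes. The 15 genes on this side kept their sign in every alternative setting too, and here too the arrays did not overlap, so most settings could not change it.

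**Figure D2:**
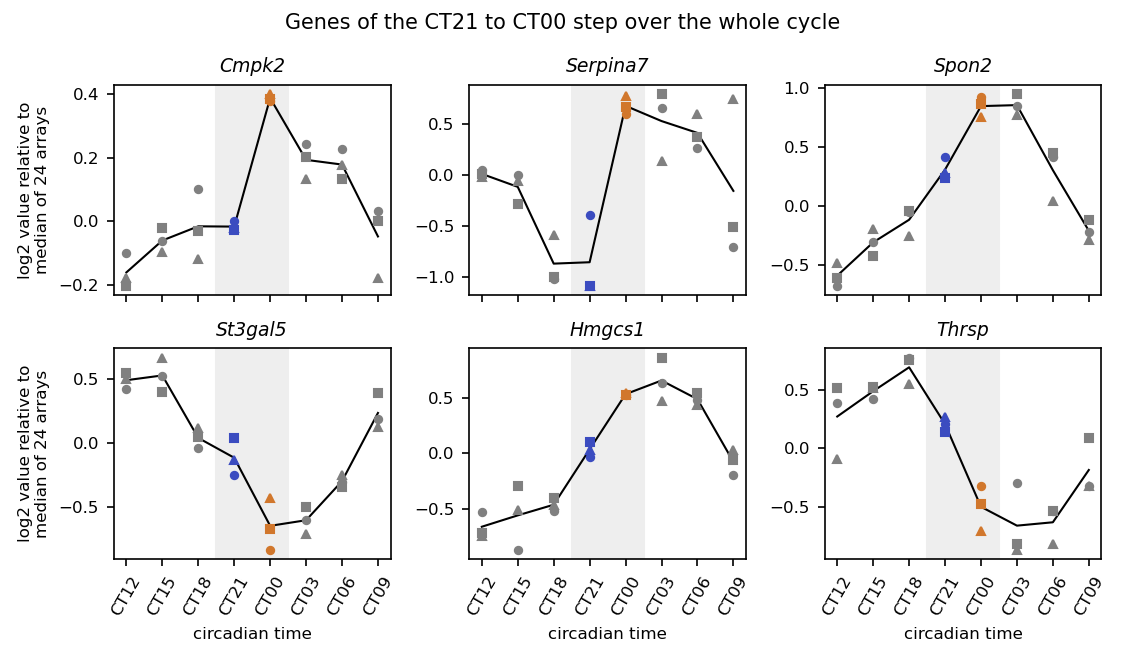
Relative log2 value of 6 genes on each of the 24 arrays by circadian time, with symbols for replicates 1, 2 and 3, a line through the group means and CT21 and CT00 shaded. Cmpk2 is highest at CT00 (mean 0.39) and lower at CT03, while the means of Serpina7 stay high at CT03 and CT06. The mean of Hmgcs1 is -0.46 at CT18, 0.036 at CT21 and 0.53 at CT00.

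Of the 18 clock genes tested, 0 passed the limma test, 6 were lower at an unadjusted p under 0.05 and 0 higher. Over all genes 7.94% were lower and 6.62% higher at that p. The median difference of the list was -0.086, against -0.019 over all genes. The list was written with earlier results of these data known. Among the activators, Arntl read 0.66, 0.71 and 0.50 at CT21 and 0.82, 0.76 and 0.70 at CT00. Arntl was high on all 6 arrays, the times overlapped, and the difference was 0.14 ± 0.13. Its partner Clock read 0.22, 0.17 and 0.15 at CT21 and 0.36, 0.33 and 0.29 at CT00, with CT00 above CT21 on all arrays and a difference of 0.15 ± 0.071 (adjusted p = 0.345). The differences of Arntl2 and of the Arntl activator Rora were -0.059 ± 0.067 and -0.11 ± 0.10, both within overlapping groups. Nfil3, the repressor that competes with DBP, read 0.52, 0.089 and 0.014 at CT21 and 0.57, 0.46 and 0.27 at CT00.

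Of the 5 PER and CRY repressor genes, 4 were lower at CT00 on all arrays, where 12.8% of all genes were. Per2 read 0.16, -0.27 and 0.0066 at CT21 and -0.42, -0.42 and -0.58 at CT00. CT00 was below CT21 on all arrays, and the difference of -0.44 ± 0.13 was the largest of the arm (adjusted p = 0.195). Per1 read -0.18, -0.32 and 0.15 at CT21 and -0.65, -0.48 and -0.34 at CT00, a difference of -0.37 ± 0.13, and its groups did not overlap. Cry1 read 0.88, 0.72 and 0.56 at CT21 and 0.48, 0.47 and 0.31 at CT00, so it was still above its median over the cycle on every array, with a difference of -0.30; the next step, CT03 minus CT00, was -0.60. Cry2 read -0.037, 0.021 and -0.16 at CT21 and -0.61, -0.30 and -0.27 at CT00, a difference of -0.33 ± 0.094 without overlap. Per3 was the exception in the arm, with CT00 arrays on both sides of the CT21 arrays and a difference of -0.15 ± 0.15.

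The REV-ERB genes, Dbp and Ciart, which are direct E-box targets, behaved differently from one CT00 liver to the next. Nr1d1 read -1.85, -0.95 and -1.38 at CT21 and -1.71, -0.78 and -0.17 at CT00. Nr1d2 read -1.45, -1.07 and -1.30 at CT21 and -1.77, -0.82 and -0.21 at CT00. Dbp, the output factor, read -1.64, -1.45 and -1.14 at CT21 and -1.94, -0.64 and -0.045 at CT00. In these 3 genes CT00 replicate 1 was the lowest or next to lowest of the 6 arrays and CT00 replicate 3 the highest, so the groups overlapped. Ciart, a repressor of ARNTL and CLOCK, read -0.76, -0.83 and -0.62 at CT21 and -1.28, -0.23 and 0.090 at CT00, in the same order. The standard deviations at CT00 were 0.972 for Dbp, 0.785 for Nr1d2, 0.775 for Nr1d1 and 0.715 for Ciart, and ranked 3, 4, 5 and 7 of all genes. The median gene had a standard deviation of 0.0641 at CT00, the smallest of the 8 times. For Dbp, Nr1d2, Nr1d1 and Ciart, CT00 was the time of largest spread. The differences themselves were 0.53 ± 0.29 for Dbp, 0.34 ± 0.25 for Nr1d2, 0.51 ± 0.29 for Nr1d1 and 0.27 ± 0.23 for Ciart, with adjusted p values from 0.385 to 0.580. The limma fit holds 1 spread per gene for all 8 times. These standard errors and adjusted p values therefore do not measure the larger spread of these genes at CT00. Without CT00 replicate 1, 4 clock genes were higher and 3 lower at an unadjusted p under 0.05. The list counted 3 lower without CT21 replicate 1 and 3 lower without CT21 replicate 3.

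The other PAR factors were less spread. Tef read -0.37, -0.51 and -0.47 at CT21 and -0.87, -0.77 and -0.42 at CT00, a difference of -0.24 ± 0.10 with CT00 replicate 3 inside the range of CT21. Hlf read -0.15, -0.095 and -0.12 at CT21 and -0.37, -0.25 and -0.27 at CT00, lower at CT00 on all arrays with a difference of -0.17 ± 0.082. The E-box repressor genes Bhlhe40 and Bhlhe41 differed by -0.25 ± 0.20 and 0.0082 ± 0.14, and both overlapped. Rgs16, a regulator of G protein signalling that is no member of the list, ranked 6 by standard deviation at CT00. It read -0.92, 0.023 and 0.49 on CT00 replicates 1, 2 and 3. Of the 15 genes of largest standard deviation at CT00, all but n-R5s136 ran in this replicate order, so the order is not particular to clock genes.

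**Figure D3:**
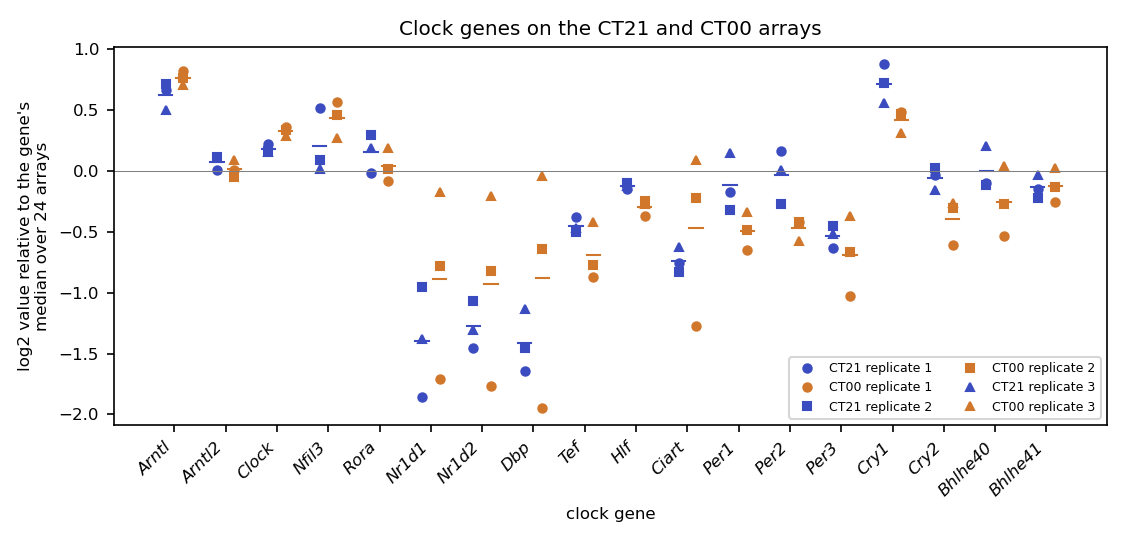
Relative log2 values of the 18 clock genes on the 3 CT21 arrays (blue) and the 3 CT00 arrays (orange), with symbols for replicates and short lines for group means. Per1, Per2, Cry1, Cry2 and Hlf are lower at CT00 on all arrays, while Nr1d1, Nr1d2, Dbp and Ciart run over more than 1 log2 unit among the CT00 arrays.

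The upstream windows of clock genes are shown for a gene with widely spread CT00 arrays, Ciart, and for the repressors Per1 and Cry1, which were lower at CT00. Only windows that hold an E-box are shown. Capitals mark the E-box CACGTG, which reads the same on both strands. The windows are 250 bases before the start site in GRCm38.p6, at chr3:95882229-95882478, minus strand, at chr11:69098699-69098948, plus strand (the first of the 2 windows of Per1), and at chr10:85185055-85185304, minus strand.
Ciart: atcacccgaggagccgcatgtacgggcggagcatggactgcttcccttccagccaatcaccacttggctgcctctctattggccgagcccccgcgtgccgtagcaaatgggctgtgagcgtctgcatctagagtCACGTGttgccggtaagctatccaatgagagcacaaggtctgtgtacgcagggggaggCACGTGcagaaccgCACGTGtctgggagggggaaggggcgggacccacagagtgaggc
Per1: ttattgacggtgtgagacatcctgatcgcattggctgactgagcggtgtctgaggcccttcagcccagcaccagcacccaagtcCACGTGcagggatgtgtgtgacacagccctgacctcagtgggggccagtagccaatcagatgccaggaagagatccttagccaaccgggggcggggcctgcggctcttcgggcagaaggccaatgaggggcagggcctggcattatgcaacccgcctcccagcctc
Cry1: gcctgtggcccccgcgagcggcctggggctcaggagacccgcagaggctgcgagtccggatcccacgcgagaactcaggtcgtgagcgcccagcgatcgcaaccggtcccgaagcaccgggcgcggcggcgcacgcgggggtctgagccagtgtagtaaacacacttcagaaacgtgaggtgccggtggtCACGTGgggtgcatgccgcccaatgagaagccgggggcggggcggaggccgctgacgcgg
Ciart holds 3 E-boxes, starting 116, 58 and 44 bases before its start site, Per1 holds 1 at 166 bases and Cry1 holds 1 at 60 bases. The second Per1 window holds 0. Windows were found for 16 clock genes, of which 5 held an E-box (31.2%), the others being Tef and Bhlhe41. Over 15561 genes with a window the share was 8.12%. The widely spread genes Dbp, Nr1d1 and Nr1d2 and the repressor genes Per2 and Cry2 are not among the 5. Only the exact letters CACGTG in the 250 bases before the start site were searched, and not every clock gene had a window. The search therefore cannot decide whether E-boxes go with how these genes behaved. The core of the element bound by ROR and REV-ERB receptors, AGGTCA on either strand, stood in 4 of the 16 windows (Clock, Nfil3, Nr1d2 and Per1) and in 14.3% of all windows; it shares no whole match with CACGTG. A match is a string of letters and not a shown binding site.

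Genes of proteins that modify clock proteins were measured as a list of 15, with 2 higher and 1 lower at an unadjusted p under 0.05. Over all genes 6.62% were higher and 7.94% lower, so counts this small do not set the list apart. Usp2, a deubiquitinase that acts on clock proteins, read -0.18, -0.24 and -0.14 at CT21 and -0.96, -0.53 and -0.37 at CT00, lower at CT00 on all arrays with a difference of -0.43 ± 0.13, with CT00 replicate 1 the lowest. Gsk3b, a kinase of CRY2 and REV-ERB, was higher by 0.28 ± 0.11, and the deacetylase gene Sirt1 by 0.19 ± 0.089. The higher count was 0 without CT00 replicate 3 or CT21 replicate 3 and 1 without CT00 replicate 2 or CT21 replicate 2, and the lower count was 2 without CT21 replicate 1.

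Other gene lists are described by their members at an unadjusted p under 0.05, since 0 members of any of the 29 lists passed the limma test after adjustment over all genes. The shares among all genes were 6.62% higher and 7.94% lower; among 2746 genes with brighter probe sets alone they were 13% and 2.73%. Most metabolic lists lie largely in the brighter class, so the latter is the nearer background for them.

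**Figure D4:**
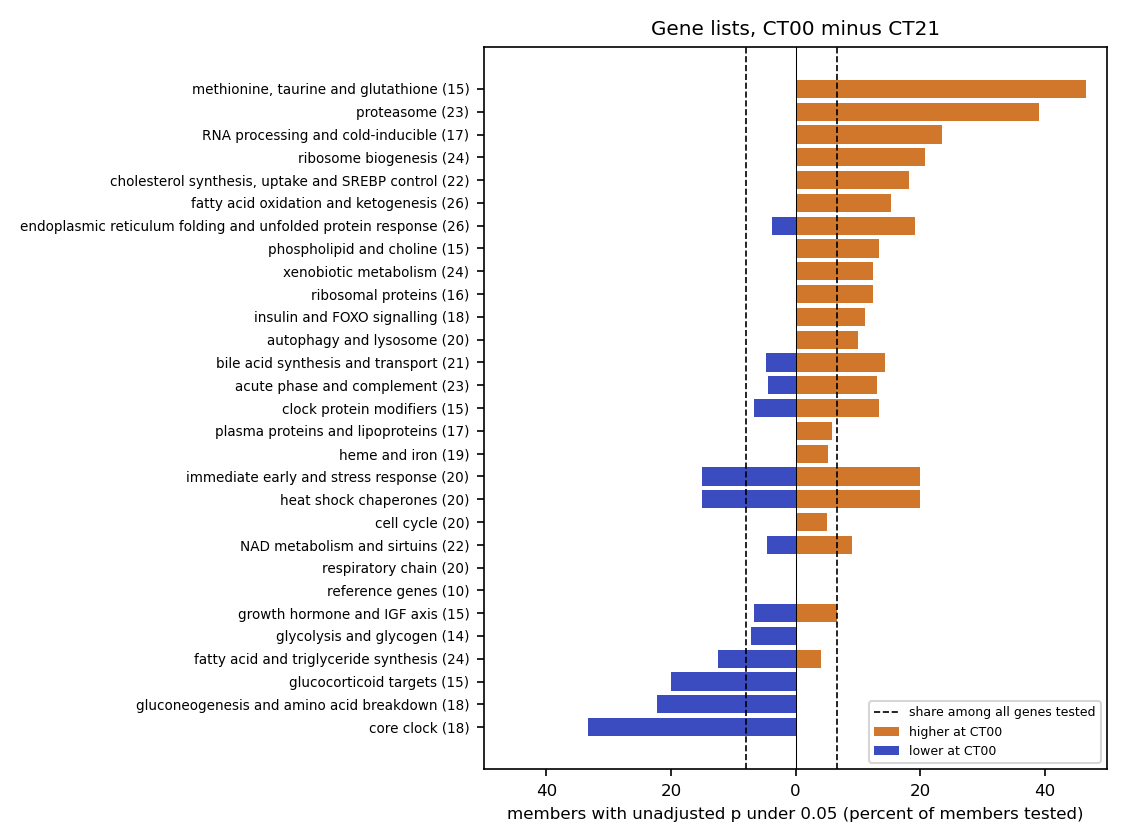
Percent of the tested members of each of 29 gene lists with an unadjusted p under 0.05, lower at CT00 to the left in blue and higher to the right in orange; the number tested stands in parentheses and dashed lines give the shares among all genes, 6.62% and 7.94%. Methionine, taurine and glutathione genes (7 of 15) and the proteasome (9 of 23) reach farthest to the right.

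In sterol synthesis 4 of 22 genes were higher, 0 lower, and the median difference was 0.054. Hmgcs1, the synthase that makes HMG-CoA for the pathway, read -0.029, 0.10 and 0.032 at CT21 and 0.53, 0.53 and 0.54 at CT00. Its 3 CT00 arrays were nearly equal and lay above all CT21 arrays, with a difference of 0.50 ± 0.11 (adjusted p = 0.120). The step before had been as large, 0.50, and the step after was 0.12. Idi1, the isomerase of isopentenyl diphosphate, read -0.26, -0.23 and -0.052 at CT21 and 0.24, 0.20 and 0.23 at CT00, the desaturase gene Sc5d was higher by 0.24 ± 0.067, and the demethylase gene Cyp51 by 0.29 ± 0.14. The median of the list was -0.017 without CT21 replicate 1 and -0.0059 with the olfactory receptor score in the fit, where 1 gene was higher. In bile acid metabolism 3 of 21 genes were higher and 1 lower. Among genes with brighter probe sets 13% were higher and 2.73% lower, so these counts do not set the list apart. Hsd3b7, an enzyme of the early steps, was higher by 0.25 ± 0.075, and Nr0b2 (SHP), the repressor of bile acid synthesis, by 0.39 ± 0.16. The sterol exporter gene Abcg8 was higher by 0.29 ± 0.13. Cyp7b1, of the alternative pathway, read 0.24, 0.35 and 0.24 at CT21 and -0.049, -0.12 and -0.15 at CT00, lower on all arrays with a difference of -0.38 ± 0.16. The list had 6 genes higher without CT00 replicate 1 and 1 without CT00 replicate 2 or CT21 replicate 1; the lower count was 0 without CT00 replicate 2, CT00 replicate 3 or CT21 replicate 2.

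Fuel genes went in both directions. In fatty acid and triglyceride synthesis 3 of 24 genes were lower and 1, Elovl5, higher. Beside Thrsp these were Acacb, the carboxylase whose product restrains mitochondrial fatty acid uptake, lower (-0.44 ± 0.14), and Lpin1, the phosphatidate phosphatase, which read -0.50, -0.25 and 0.67 at CT21 and -1.12, -0.63 and -0.27 at CT00. The Lpin1 groups overlapped through CT21 replicate 1, which lay within the range of CT00. Without CT21 replicate 1 this list had 3 genes higher and 5 lower. In fatty acid oxidation and ketogenesis 4 of 26 genes were higher and 0 lower, with a median of 0.11. Pdk4, the kinase that shuts off pyruvate dehydrogenase in fasting, read 0.16, 0.50 and -0.083 at CT21 and 1.19, 0.90 and 0.67 at CT00. All CT00 arrays of Pdk4 lay above all CT21 arrays, and the difference was 0.73 ± 0.19 (adjusted p = 0.168). Hadha, of the mitochondrial trifunctional protein, was higher by 0.20 ± 0.065, the ketone body dehydrogenase gene Bdh1 by 0.28 ± 0.12 and the acyl-CoA dehydrogenase gene Acadl by 0.20 ± 0.095. The count for this list was 9 without CT00 replicate 1, 8 without CT21 replicate 1 and 1 without CT21 replicate 3.

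Gluconeogenesis and amino acid breakdown had 4 of 18 genes lower and 0 higher, with a median of -0.059. Pck1, the carboxykinase that commits carbon to glucose, read -0.71, 0.35 and -0.095 at CT21 and -1.57, -0.74 and -0.53 at CT00, spread widely at both times and overlapping. Fbp1, fructose bisphosphatase, read -0.010, -0.0016 and 0.0016 at CT21 and -0.10, -0.13 and -0.22 at CT00, a small difference of -0.15 ± 0.042 with no overlap. Slc37a4, the glucose 6-phosphate transporter, was lower (-0.26 ± 0.13). The count was 2 without CT00 replicate 1, CT21 replicate 2 or CT21 replicate 3. In glycolysis and glycogen metabolism 1 of 14 genes was lower, the liver pyruvate kinase gene Pklr (-0.29 ± 0.13). Glucocorticoid targets had 3 of 15 lower, Zbtb16 (-0.74 ± 0.30), the leucine zipper gene Tsc22d3 or GILZ (-0.25 ± 0.11) and Per1; the count was 1 without CT00 replicate 1 or CT21 replicate 2. In insulin and FOXO signalling Igfbp1, a fasting-induced binding protein for insulin-like growth factors, read -0.34, 0.24 and -0.67 at CT21 and 0.024, 0.50 and 0.85 at CT00. Its times overlapped and its difference was 0.71 ± 0.29. Mtor, the nutrient-sensing kinase, was higher by 0.19 ± 0.091. On the growth hormone axis the receptor-coupled kinase gene Jak2 was higher by 0.31 ± 0.11 and Igfbp4 lower (-0.20 ± 0.064).

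Genes of methionine, taurine and glutathione metabolism had the largest share of higher members among the 29 lists, 7 of 15, with 0 lower and a median of 0.13 against 0.058 in the brighter class. Cdo1, the cysteine dioxygenase, read -0.22, -0.20 and -0.31 at CT21 and 0.051, 0.10 and 0.15 at CT00, all CT00 arrays above all CT21 arrays, with a difference of 0.34 ± 0.074 (adjusted p = 0.120). Csad, which carries the product of Cdo1 on towards taurine, read -0.44, -0.38 and -0.38 at CT21 and -0.096, 0.072 and 0.18 at CT00, a difference of 0.45 ± 0.12. Gclc, the catalytic subunit of the enzyme that limits glutathione synthesis, read -0.13, -0.0098 and 0.023 at CT21 and 0.18, 0.31 and 0.46 at CT00. Its modifier subunit gene Gclm was higher by 0.20 ± 0.086, glutathione synthetase (Gss) by 0.24 ± 0.075, glutathione reductase (Gsr) by 0.14 ± 0.052 and cystathionine beta-synthase (Cbs) by 0.23 ± 0.10. The count was 4 without CT00 replicate 2 or CT21 replicate 3, and 5 with the olfactory receptor score in the fit.

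The proteasome list had 9 of 23 subunit genes higher and 0 lower, with a median of 0.11. The core subunit gene Psma3 read -0.13, -0.11 and -0.25 at CT21 and -0.0053, 0.061 and 0.18 at CT00, CT00 above CT21 on all arrays by 0.24 ± 0.064. Psma5 was higher by 0.25 ± 0.073, Psma7 by 0.32 ± 0.13 and Psmb1 by 0.13 ± 0.061. Of the regulatory particle, the ATPase genes Psmc1, Psmc2 and Psmc6 were higher by 0.18, 0.12 and 0.28, and Psmd11 and Psmd12 by 0.23 and 0.18. The count was 4 without CT21 replicate 3 and 2 with the olfactory receptor score in the fit, and the part of that array-wide shift in the result was not tested further.

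Chaperones of the cytosol and of the endoplasmic reticulum did not move as blocks. Among heat shock chaperones 4 of 20 genes were higher and 3 lower, with a median of 0.0063. Hspa8, the constitutive HSC70, read -0.12, -0.65 and -0.40 at CT21 and 0.048, 0.0032 and -0.040 at CT00, higher by 0.39 ± 0.099 after a step of -0.85 from CT18 to CT21. Hspa4l, an HSP110 family member, read 0.40, 0.50 and 0.31 at CT21 and 0.0046, 0.021 and -0.0046 at CT00, lower without overlap, with a difference of -0.40 ± 0.10. The J-domain co-chaperone gene Dnajb4 was higher by 0.37 ± 0.10, Dnaja1 by 0.22 ± 0.10 and the HSP90 co-chaperone gene Chordc1 by 0.32 ± 0.15, while the differences of Hsp90aa1 and Hspb1 were -0.37 and -0.38. The higher count was 2 without CT00 replicate 1, CT00 replicate 3, CT21 replicate 2 or CT21 replicate 3. In the endoplasmic reticulum 5 of 26 genes were higher and 1 lower. Eif2ak3 (PERK), the kinase that slows translation under folding stress, read -0.48, -0.34 and -0.78 at CT21 and -0.0059, 0.11 and 0.052 at CT00, and its difference was 0.58 ± 0.13 (adjusted p = 0.120). Atf4, the factor translated under that slowdown, read 0.12, -0.18 and -0.12 at CT21 and 0.29, 0.33 and 0.29 at CT00, with a difference of 0.36 ± 0.090. Atf6 and Ddit3 (CHOP) were higher by 0.25 ± 0.10 and 0.21 ± 0.098, and Chac1, an ATF4 target, lower (-0.28 ± 0.12). The median of the list, 0.025, was -0.12 with the olfactory receptor score in the fit and -0.015 without CT21 replicate 1. The higher count of this list was 3 without CT00 replicate 3 or CT21 replicate 3.

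Genes of ribosome making were higher in 5 of 24 cases and lower in 0, with a median of 0.089. Npm1, the nucleolar chaperone nucleophosmin, read -0.17, -0.36 and -0.47 at CT21 and 0.0036, 0.13 and 0.17 at CT00, a difference of 0.44 ± 0.12 without overlap. Ubtf, the RNA polymerase I factor, read -0.083, -0.25 and -0.29 at CT21 and 0.070, 0.084 and 0.073 at CT00, with 3 nearly equal CT00 arrays. Nucleolin (Ncl), Nop58 and Pes1 were higher by 0.29, 0.41 and 0.18. The count was 3 without CT00 replicate 1 or CT00 replicate 2 and 1 with the olfactory receptor score in the fit. Of 16 ribosomal protein genes, Rpl5 and Rpl7 were higher, by 0.18 and 0.20, each the mean of several probe sets that near-identical copies may share. RNA processing genes were higher in 4 of 17 cases, among them the splicing factor gene Prpf3 by 0.30 ± 0.10 and Tra2b by 0.26 ± 0.10; the count was 1 without CT00 replicate 3 or CT21 replicate 2 and 2 without CT00 replicate 1 or CT21 replicate 3.

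Early response genes went both ways, 4 of 20 higher and 3 lower. Dusp6, a phosphatase of ERK kinases, read -0.25, -0.27 and -0.33 at CT21 and 0.40, 0.30 and 0.21 at CT00, CT00 above CT21 on all arrays by 0.59 ± 0.19. Jun was higher by 0.46 ± 0.20, Jund by 0.11 ± 0.051 and Klf6 by 0.21 ± 0.075, while the differences of Fos, Nr4a1 and Klf4 were -0.25, -0.18 and -0.29. The counts were 1 higher and 2 lower without CT21 replicate 1, 4 higher and 0 lower without CT21 replicate 3, and 5 higher and 1 lower without CT00 replicate 1. They were 2 higher and 2 lower without CT00 replicate 2 or CT21 replicate 2, and 2 higher and 1 lower without CT00 replicate 3.

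Elsewhere few members reached an unadjusted p under 0.05. The aldehyde oxidase gene Aox1 was higher by 0.38 ± 0.11, beside Acmsd and Sirt1 in the list of NAD metabolism. In drug metabolism 3 of 24 genes were higher, Cyp2c55 (0.32), Abcb1a (0.23) and Cyp3a11 (0.20), and 0 without CT21 replicate 3. Among genes with brighter probe sets 13% were higher, so this count does not set the list apart. In the acute phase list the pentraxin gene Apcs, ceruloplasmin (Cp) and fibrinogen gamma (Fgg) were higher, Apcs by 0.40 ± 0.13, and the interleukin 6 receptor gene Il6ra lower (-0.42 ± 0.16). The choline kinase gene Chka was higher by 0.34 ± 0.16, Cept1 by 0.19 ± 0.085, Gabarapl1 of autophagy by 0.27 ± 0.10, Gabarapl2 by 0.23 ± 0.10, Apob by 0.13 ± 0.049, the heme enzyme gene Ppox by 0.18 ± 0.078 and the thymidylate synthase gene Tyms by 0.23 ± 0.10. In the respiratory chain 0 of 20 genes and in the reference genes 0 of 10 reached that p in either direction, with medians of 0.0037 and 0.00096.

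Markers of other cells were measured beside these genes. At an unadjusted p under 0.05, 6.62% of all genes were higher and 7.94% lower, so a single member does not set a marker list apart. Stellate cell markers were higher in 3 of 8 cases, namely Hgf by 0.30 ± 0.11, Dcn by 0.29 ± 0.13 and Reln by 0.27 ± 0.11, and the mean over the 8 ran from -0.079 to -0.063 on the CT21 arrays and from 0.043 to 0.14 on the CT00 arrays. Of 8 endothelial markers 2 were higher, Pecam1 by 0.18 ± 0.074 and Oit3 by 0.30 ± 0.13, with list means of -0.13 to 0.064 and 0.014 to 0.14. The stellate count was 1 without CT21 replicate 3, and the endothelial count was 0 without CT00 replicate 1, CT21 replicate 2 or CT21 replicate 3. The 9 Kupffer cell markers had 0 at that p and overlapping means, -0.30 to 0.13 at CT21 and -0.077 to 0.097 at CT00. Erythroid markers had means of 0.018 to 0.13 at CT21 and -0.059 to -0.038 at CT00, with 1 of 4, Slc4a1, lower. Exocrine pancreas markers had means of 0.035 to 0.13 and -0.047 to 0.0095, with 0 of 5 at that p. Of bile duct, lymphocyte and neutrophil markers 1 each was lower (Cldn7 of 5, Cd3e of 7 and Mpo of 9), and of 8 hepatocyte, 5 muscle and 5 adipocyte markers 0 reached that p. The part of any of these in the differences above was not tested.

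The step into subjective dawn was set against the step into subjective dusk, CT12 minus CT09, which uses 6 other arrays. The steps differed for 17 genes (0.0853% of those tested; 1224 genes or 6.14% at an unadjusted p under 0.05), 9 with the dawn step above the dusk step and 8 below. Hmgcs1 had the smallest p: 0.50 ± 0.11 at dawn against -0.58 ± 0.11 at dusk, a difference of 1.08 ± 0.15 (adjusted p = 0.00796). Ppp1r10, a nuclear partner of protein phosphatase 1, had -0.58 ± 0.15 at dawn and 0.84 ± 0.15 at dusk. It read 0.40, 0.20 and 0.68 at CT21 and -0.017, -0.053 and -0.40 at CT00, all CT00 arrays below 0 and all CT21 arrays above. Spon2 had 0.54 and -0.38, and the lysosomal sulfatase gene Arsg 0.24 and -0.38. Cmpk2 had 0.40 and -0.11, so its test rested mostly on the dawn step.

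The other 12 genes were Krt18, Smagp, Ppfibp1, Hsd3b7 and Pim1 above, and Asl, St3gal5, Thrsp, Cabyr, Etfbkmt, Shld2 and Nampt below. Nampt, the enzyme that limits NAD salvage, had a dawn step of only -0.042 against 0.81 at dusk, and the kinase gene Pim1 had 0.20 against -0.75; for these the dusk step made up most of the difference. For Thrsp the dawn step was -0.71 and the dusk step 0.46, and for Krt18 0.56 and -0.39. The 2 steps had opposite signs in each of the 17 genes. A contrast of the steps favours such genes, so this count follows largely from how they were chosen and is no separate result. The count ran from 4 to 14 with 1 array left out, lowest without CT21 replicate 2; it was 7, 6 and 8 without CT00 replicates 1, 2 and 3, 7 without CT21 replicate 3, 6 without CT09 replicate 1, CT09 replicate 2 or CT12 replicate 2.

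**Figure D5:**
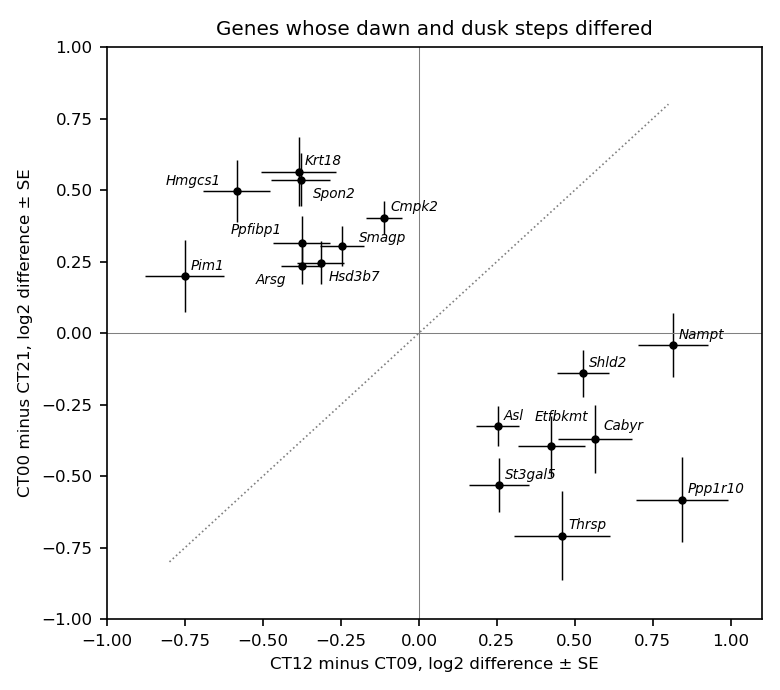
Dawn step (CT00 minus CT21, vertical) against dusk step (CT12 minus CT09, horizontal) in log2 units for the 17 genes whose steps differed, with standard errors from the fit as bars and a dotted line where both steps would be equal. Hmgcs1, Spon2 and Krt18 are positive at dawn and negative at dusk; Ppp1r10 and Thrsp are the reverse.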

How the data were processed

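The deposited table gives log2 values of 28815 probe sets on 24 Affymetrix Mouse Gene 1.0 ST arrays, each minus the median of its probe set over the arrays, which was 0 to within 5e-07. For summarization, normalization and log base the sources used here say nothing; base 2 was assumed, and folds hold for it. Arrays have no depth, and their number, 3 per time, limits the precision. RNA was extracted with RNeasy from each liver, per the labels' protocols. Probe sets with 1 symbol in the platform annotation (21780; 1605 had several and 5430 were not listed) were averaged to 19935 genes, 998 of them with several probe sets; 21689 matched RefSeq by Entrez identifier. Rounding steps of the values gave the brightness class (4009 probe sets brighter, 24806 dimmer), the brighter class being 8 to 16.

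Times were compared with limma 3.58.1 in R 4.3.3, with 1 mean per time over 24 arrays (16 residual degrees of freedom), eBayes moderation and Benjamini-Hochberg adjustment at 0.05. Scripts were tested on simulated data. The genes named are all that passed and the genes of smallest p up to 15 in each direction, all clock genes, up to 3 of smallest p per list and the 5 of smallest p between dawn and dusk steps; further list members with an unadjusted p under 0.05, Rgs16, Rsad2 and the other 12 genes of the dawn and dusk contrast were named after their values were seen. The members and lists were chosen with earlier results of these data known. Promoter windows are those of RefSeq, build GRCm38.p6, found for 15561 genes. Alternatives covered single arrays left out, array weights, normalization, moderation, probe sets and thresholds. Leaving out the 4 widest arrays, and the olfactory receptor and small nucleolar RNA scores in the fit, were added after seeing the data.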

Additional observations from a re-analysis of the deposited data

Results flagged for a closer look

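The dawn step, CT00 minus CT21, differed from the dusk step, CT12 minus CT09, for 17 genes by the limma interaction contrast at an adjusted p under 0.05. The 5 of smallest p had dawn minus dusk differences of 1.08 for Hmgcs1, 0.92 for Spon2, -1.43 for Ppp1r10, 0.61 for Arsg and 0.52 for Cmpk2, on the log2 scale. Groups of 3 arrays were not screened for single outlying samples.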

How the results depend on the processing

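The count of genes changed from CT21 to CT00, 1 as reported, was 0 with only the 6 arrays, 0 to 119 with 1 array left out, 6 with the replicate number as a block, 2410 with array weights, 66 after quantile normalization, 0 with brighter probe sets only, 4 at an adjusted p under 0.10, 0 with a fold of at least 1.5 and 0 without the 4 widest arrays. It was 1 with robust or no moderation, median centring, single probe sets or either covariate. The count for dawn against dusk, 17, was 4 to 14 with 1 array left out, 31 with the replicate block, 137 with array weights, 5 without moderation, 42 at an adjusted p under 0.10, 5 without the 4 widest arrays and 30 with the small nucleolar RNA covariate; the other alternatives gave 13 to 24. The causes were not tested.

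The replicate numbers did not pair the samples: the correlations of same-numbered CT00 and CT21 arrays were 0.126, -0.115 and 0.0987, and 2 of 6 arrays correlated best with their own number. Of 159 named genes, 143 kept their sign in every alternative, up to 18 for each, and 0 of the called results reversed. Where the CT21 and CT00 arrays of a gene did not overlap, leaving out an array could not change its sign. Signal over background was not analysed here, so detection of dim genes could not be judged.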

Other observations

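Because Cmpk2 and Rtp4 are interferon-induced, 37 genes of the interferon response were listed after their values had been seen, and 34 were tested. This description is therefore no test of the list. At an unadjusted p under 0.05, 17 were higher at CT00 and 0 lower, where 6.62% of all genes were higher and 7.94% lower. On all arrays 18 lay above CT21 and 2 below, where 9.56% of all genes lay above and 12.8% below. The median difference was 0.22, against -0.019 over all genes. Cmpk2 and Rtp4, which prompted the list, are counted in it. Cmpk2 alone passed after adjustment over all genes. The mean over the list was -0.060, -0.11 and -0.13 on CT21 replicates 1, 2 and 3 and -0.0066, 0.12 and 0.21 on CT00 replicates 1, 2 and 3. The count was 9 without CT00 replicate 3, 11 without CT21 replicate 3 and 10 with the olfactory receptor score in the fit. Windows were found for 26 of the genes, and 9 (34.6%) held an interferon-stimulated response element, searched as in the Rsad2 window, against 3.4% of 15561 gene windows.

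Cxcl9, an interferon-gamma-induced chemokine, and Gbp4, a guanylate-binding protein, ranked 13 and 15 of all genes by standard deviation at CT00. Cxcl9 read 0.024, 0.64 and 1.11 on CT00 replicates 1, 2 and 3, and Gbp4 read -0.0023, 0.42 and 1.04. Their order over these arrays was that of Dbp, Nr1d1 and Nr1d2, from lowest on replicate 1 to highest on replicate 3. All but n-R5s136 of the 15 genes of largest standard deviation at CT00 ran in this order, so it sets none of these genes apart. The fatty acid hydroxylase gene Cyp4a14, ranked 8, read -0.91, -0.12 and 0.44 in the same order.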
